A study of Mus musculus with 9 samples.

Results

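The 3 Gadd45 stress genes and 7 genes of the p53 response were examined for their RNA in precipitates of phosphorylated UPF1 (p-UPF1) from activated mouse B cells. The 10 genes, Gadd45a, Gadd45b, Gadd45g, Cdkn1a, Cdkn1b, Trp53, Mdm2, Mdm4, Trp53inp1 and Pmaip1, were picked by name, through the NCBI Gene number of each symbol, out of 27179 gene identifiers. All 10 had enough counts to be tested, among 13129 genes that did. In RNA immunoprecipitation sequencing, a protein is pulled out of a lysate with an antibody and the RNA attached to it is sequenced. The cells were splenic B cells of wild-type mice, CD43-negative and activated for 72 h. As the labels give it, the stimuli were CD40L (5 ug/mL), an anti-IgM antibody (10 ug/mL) and IL-4 (20 ng/mL), whereas the methods name an antibody against CD40 in place of the ligand. All 3 groups shared these cells and this stimulation, and they differed only in what was taken from the lysate. The input group was RNA of the lysate itself, the IgG group was RNA that came down with normal rabbit IgG, and the p-UPF1 group was RNA that came down with an antibody against p-UPF1. Each group had 3 libraries. The study's methods describe adult, age-matched mice of both sexes and call the points of its graphs independent biological replicates. Which mice or cultures gave each of these libraries is not given in the sources used here, so a P value measures the spread between these libraries, which may be technical.

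UPF1 is an RNA helicase at the centre of nonsense-mediated mRNA decay (NMD). Once it is phosphorylated on an mRNA whose translation ended in an unfavourable setting, such as far ahead of an exon junction or a long 3′ untranslated region (UTR), it recruits the factors that degrade that mRNA. p53, encoded by Trp53, is the transcription factor that answers DNA damage. Its targets arrest the cell cycle, repair DNA or start apoptosis, and its level is held down by Mdm2 and Mdm4. The Gadd45 proteins are small acidic stress proteins that bind the kinase Map3k4 upstream of p38 and JNK as well as Pcna and Cdk1, and mRNAs of the family are known NMD substrates in other cells.

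Input libraries held 19873687 to 24945286 counts, IgG libraries 17372510 to 18550508 and p-UPF1 libraries 23251890 to 24802119. Within a group, Pearson's r of log2 values lay between 0.996 and 0.997 for input, between 0.982 and 0.986 for IgG and at 0.996 for p-UPF1, so the IgG libraries differed most among themselves. Levels are counts-per-million values (CPM) after TMM scaling. The B cell markers Cd79a, Cd79b, Ms4a1, Pax5 and Cd22 together reached 2436 to 2451 CPM with input, 1662 to 1707 CPM with IgG and 1506 to 1568 CPM with p-UPF1. Cd79a, Cd79b and Ms4a1 were lower with p-UPF1 than with input. Pax5 and Cd22 were higher, at means of 182 and 306 CPM against 58.0 and 159 CPM. The 4 T cell markers summed to at most 1.43 CPM and the 2 NK cell markers to at most 0.499 CPM in any library, and both red cell markers were at 0 in all libraries. Of the 4 myeloid markers, only Adgre1 passed the filter on low counts, and the list summed to 127 to 139 CPM with input, 85.9 to 91.5 CPM with IgG and 57.2 to 59.3 CPM with p-UPF1. Nearly all of this was Adgre1, with a mean of 131 CPM in input. Lyz2, Itgam and Csf1r held 49, 38 and 5 reads over all 9 libraries. The part of other cells in the results was not tested.

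The Gadd45 genes are paralogs, and reads can be told apart only where their sequences differ. On RefSeq GRCm38.p6 (the assembly that mm10 names), Gadd45a lies at chr6:67035096-67037407 on the minus strand, Gadd45b at chr10:80930091-80932204 on the plus strand and Gadd45g at chr13:51846675-51848475 on the plus strand. To show how alike they are, a stretch of 107 coding bases within exon 3 is printed for each, 5′ to 3′ on the coding strand of GRCm38. It lies at chr6:67036790-67036896 in Gadd45a, chr10:80931048-80931154 in Gadd45b and chr13:51847575-51847681 in Gadd45g. Capitals mark the 71 bases that are the same in all 3 genes.
Gadd45a: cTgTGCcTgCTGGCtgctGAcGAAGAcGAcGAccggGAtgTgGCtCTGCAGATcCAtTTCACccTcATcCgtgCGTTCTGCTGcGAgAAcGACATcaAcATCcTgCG
Gadd45b: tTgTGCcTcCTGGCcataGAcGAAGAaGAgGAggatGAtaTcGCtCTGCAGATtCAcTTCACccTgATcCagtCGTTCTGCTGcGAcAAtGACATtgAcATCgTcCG
Gadd45g: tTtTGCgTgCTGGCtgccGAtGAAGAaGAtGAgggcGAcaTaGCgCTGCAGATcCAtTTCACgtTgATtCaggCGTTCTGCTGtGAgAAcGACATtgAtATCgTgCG
Over the whole coding sequence, 60.6% of aligned bases were identical between Gadd45a and Gadd45b, 61.9% between Gadd45a and Gadd45g and 64.4% between Gadd45b and Gadd45g. The longest run of identical bases in these pairs was 13, 17 and 14 bases.

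All 3 Gadd45 mRNAs were far more abundant in the p-UPF1 precipitate than in either background, and they were the only members that met the criterion for p-UPF1-bound RNA. Under that criterion, taken from the study's methods, the log2 fold change has to reach 1 against IgG and 2 against input, with both adjusted P values under 0.05. It was met by 3 of 10 members against 6.25% of all genes tested (820 of 13129). The family's share of all counts was 0.00871% ± 0.00042 for input, 0.0134% ± 0.0014 for IgG and 0.0836% ± 0.0034 for p-UPF1 (SD, n = 3). Fold changes set each RNA against the typical RNA in its library, since TMM scaling assumes that most genes do not differ. Here 40.4% of genes tested passed as higher than in IgG and 42.2% as lower. Most genes thus did differ, and where 0 lies depends on the scaling.

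Gadd45b, which NF-κB and stress signals induce and whose product binds the JNK kinase Map2k7, stood at 22.7, 22.4 and 20.7 CPM in the 3 input libraries. It stood at 24.5, 23.3 and 24.5 CPM in IgG and at 200.2, 185 and 184 CPM in p-UPF1 libraries. Every p-UPF1 library was far above all 6 others, and input and IgG lay close together. The log2 fold change was 2.98 ± 0.06 (SE) over IgG, a 7.88-fold difference (edgeR, adjusted P = 3.92e-17), and 3.11 ± 0.06 over input, 8.65-fold (adjusted P = 1.76e-17). IgG over input was 0.13 ± 0.06 (adjusted P = 0.0884), although the groups did not overlap. This last value passed the threshold under all 5 other scalings tried, at 0.17 to 0.25, without a filter on low counts (0.22) and with only the 2 groups fitted (0.24). It did not pass with DESeq2 (0.17, adjusted P = 0.0553) or limma-voom (0.13, adjusted P = 0.159), nor without any 1 library, and was lowest without the input library lettered C, at 0.085 (adjusted P = 0.35). Gadd45b held rank 157 of 13129 over IgG and rank 70 over input.

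Gadd45g, which cytokines induce in immune cells, stood at 63.3, 59.7 and 57.5 CPM in input. Its level was 104, 90.2 and 85.6 CPM in IgG and 671, 662 and 630.2 CPM in p-UPF1 libraries. The 3 groups were fully separated, with IgG between input and p-UPF1 but much nearer to input. Over IgG the log2 fold change was 2.81 ± 0.06 (7.02-fold, adjusted P = 2.63e-16) and over input it was 3.44 ± 0.06 (10.9-fold, adjusted P = 2.95e-17), the latter at rank 22 of 13129. IgG over input was 0.63 ± 0.06 (adjusted P = 6.84e-07), so part of the distance from input was already present in the control precipitate.

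Gadd45a, the founding member and the classical p53 target of the family, was the scarcest member. The 3 libraries of a group held 6.77, 6.36 and 6.22 CPM in input, 9.78, 8.42 and 5.80 CPM in IgG, and 33.5, 37.7 and 27.7 CPM in p-UPF1. The lowest count behind these values was 113 reads, in an IgG library. The p-UPF1 libraries were again above all others, while IgG and input overlapped. The log2 fold change was 2.04 ± 0.15 over IgG (4.12-fold, adjusted P = 1.01e-09) and 2.35 ± 0.15 over input (5.09-fold, adjusted P = 1.75e-10). IgG over input was 0.31 ± 0.17 (adjusted P = 0.15), and single IgG libraries moved it in both directions. It was 0.13 without the library lettered A (adjusted P = 0.554) and 0.48 without the library lettered C (adjusted P = 0.0166), and it also passed without a filter on low counts (0.39, adjusted P = 0.0059). On the opposite strand, 238 bases of the exons of Gadd45a are shared with E230016M11Rik, whose own count was 1 to 14 reads per library. Whether the counting used strand is not stated for these libraries, so reads in that stretch cannot be assigned with certainty.

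**Figure D1:**
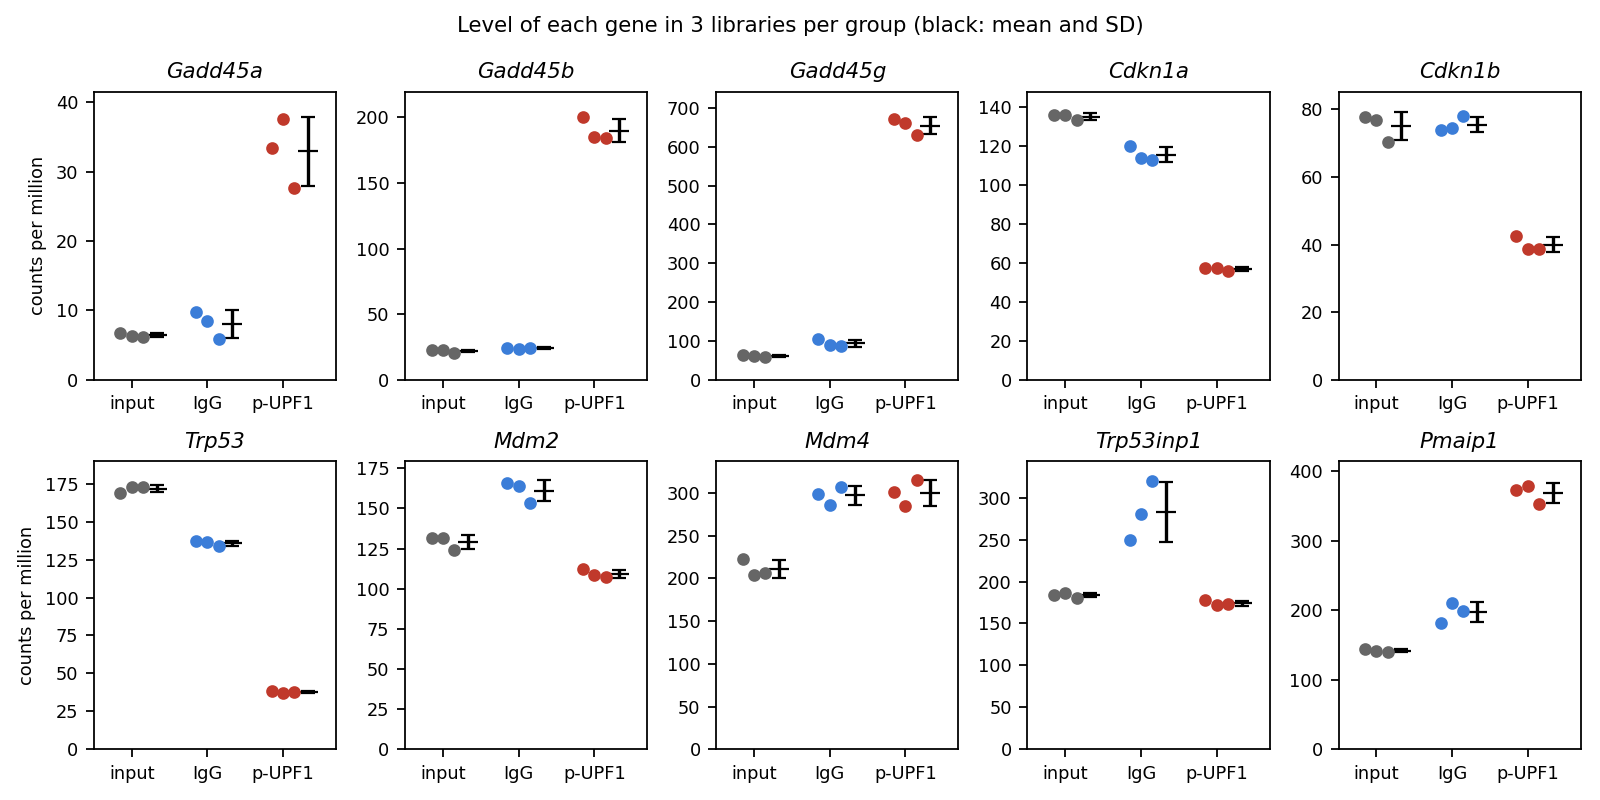
Level of each of the 10 genes as CPM (y axis, linear from 0, a separate scale for each gene) in the 3 input, 3 IgG and 3 p-UPF1 libraries; points are libraries in the order of their column letters, and the black mark is the mean with its SD. The 3 Gadd45 genes and Pmaip1 are highest in p-UPF1 libraries. Cdkn1a, Cdkn1b, Trp53, Mdm2 and, by a small margin, Trp53inp1 are lowest there, and Mdm4 overlaps between IgG and p-UPF1.

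The ratio of 2 genes within a library does not depend on scaling. Of 6 pairs compared in each contrast, 3 lay within the Gadd45 family. In each fit all ratios share the noise of the same second gene. The intervals of all pairs may therefore be too narrow and their P values too small. The count of Gadd45b over that of Gadd45a was 3.35, 3.52 and 3.33 in input, 2.51, 2.76 and 4.23 in IgG, and 5.99, 4.92 and 6.67 in p-UPF1 libraries. On the log2 scale its difference between p-UPF1 and IgG was 0.92 (95% interval 0.39 to 1.45, limma, adjusted P = 0.00137), and between p-UPF1 and input it was 0.79 (0.26 to 1.31, adjusted P = 0.00531). Gadd45b was thus more enriched than Gadd45a against both backgrounds. Gadd45a was also less enriched than Gadd45g, by a log2 difference of −0.76 over IgG (−1.09 to −0.44, adjusted P = 0.000588) and −1.12 over input (−1.44 to −0.79, adjusted P = 3.56e-05). For Gadd45b against Gadd45g the difference passed the test over input alone. It was 0.16 over IgG, which did not pass the test (−0.05 to 0.37, adjusted P = 0.119), and −0.33 over input (−0.54 to −0.13, adjusted P = 0.0057). Without the IgG library lettered C the first of these was 0.23 (adjusted P = 0.0272). The count ratio of Gadd45b to Gadd45g ranged from 0.358 to 0.375 with input, from 0.235 to 0.287 with IgG and from 0.280 to 0.298 with p-UPF1, so IgG and p-UPF1 overlapped and input stood apart.

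Pmaip1, which encodes the BH3-only death protein Noxa, was the only other member higher in the p-UPF1 precipitate than in both backgrounds. It stood at 144, 141 and 140 CPM in input, 181, 211 and 199 CPM in IgG, and 373, 379 and 352 CPM in p-UPF1 libraries. The 3 groups did not overlap. Its log2 fold change was 0.90 ± 0.05 over IgG (1.87-fold, adjusted P = 4.09e-11) and 1.38 ± 0.05 over input (2.60-fold, adjusted P = 1.48e-13). Both values passed the test, but both lay short of the size the criterion asks for.

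Trp53 itself showed the lowest enrichment of the 10 genes. It stood at 169, 173 and 173 CPM in input, 137, 137 and 134 CPM in IgG and 38.3, 37.0 and 38.0 CPM in p-UPF1 libraries. All p-UPF1 libraries were far below all others. Its log2 fold change was −1.85 ± 0.04 over IgG, 3.59-fold lower (adjusted P = 4.18e-16), and −2.18 ± 0.04 over input, 4.54-fold lower (adjusted P = 4.19e-17). RefSeq lists a pseudogene of Trp53 and another of Mdm4 on this assembly. Neither has a row in the table, and how reads shared with them were counted is not known.

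The 2 inhibitors of cyclin-dependent kinases, Cdkn1a (p21, the main p53 target in cell cycle arrest) and Cdkn1b (p27, which holds resting cells out of the cycle), were depleted from the p-UPF1 precipitate. Cdkn1a stood at 136, 136 and 133 CPM in input, 120.1, 114 and 113 CPM in IgG, and 57.3, 57.6 and 55.8 CPM in p-UPF1 libraries. Cdkn1b stood at 77.7, 77.0 and 70.3 CPM in input, 74.0, 74.4 and 78.0 CPM in IgG, and 42.5, 38.6 and 38.6 CPM in p-UPF1 libraries. For both genes the p-UPF1 libraries lay below all others, and input and IgG overlapped for Cdkn1b only. The log2 fold change of Cdkn1a was −1.02 ± 0.04 over IgG (adjusted P = 1.06e-12) and −1.25 ± 0.04 over input (adjusted P = 5.58e-14). That of Cdkn1b was −0.92 ± 0.06 over IgG (adjusted P = 1.79e-10) and −0.91 ± 0.06 over input (adjusted P = 1.66e-10). The difference between the pair was −0.10 over IgG (95% interval −0.27 to 0.07, adjusted P = 0.22) and −0.34 over input (−0.51 to −0.17, adjusted P = 0.00226), with Cdkn1a the more depleted against input.

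The 2 p53 inhibitors differed from each other. Mdm2, the ubiquitin ligase that targets p53 for degradation, stood at 131, 132 and 124 CPM in input, 166, 164 and 154 CPM in IgG, and 112, 108 and 107 CPM in p-UPF1 libraries. Its log2 fold change was −0.56 ± 0.04 over IgG (adjusted P = 4.46e-09) and −0.24 ± 0.05 over input (adjusted P = 0.000109). The second value no longer passed when no filter on low counts was applied, at −0.11 (adjusted P = 0.0677). Mdm4, which binds p53 and blocks its transactivation, stood at 223, 204 and 206 CPM in input, 299, 285 and 307 CPM in IgG, and 301, 284 and 315 CPM in p-UPF1 libraries. Its IgG and p-UPF1 libraries overlapped, and the log2 fold change over IgG was 0.01 ± 0.05 (adjusted P = 0.804), turning to −0.12 with upper-quartile factors (adjusted P = 0.025) and −0.15 with library size alone (adjusted P = 0.00985). Over input it was 0.51 ± 0.05 (adjusted P = 4.73e-08), nearly the same as its 0.49 ± 0.05 for IgG over input (adjusted P = 4.7e-07). The ratio of Mdm2 to Mdm4 was lower in p-UPF1 libraries, by a log2 difference of −0.57 over IgG (95% interval −0.76 to −0.39, adjusted P = 0.000178) and −0.75 over input (−0.93 to −0.56, adjusted P = 2.74e-05). Both genes have annotated transcripts of the NMD class, and counts per gene do not separate those from the others.

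Trp53inp1, a p53 target that promotes autophagy and cell death, moved mainly in the control precipitate. It stood at 185, 186 and 181 CPM in input, 249, 280.2 and 320 CPM in IgG, and 178, 172 and 173 CPM in p-UPF1 libraries. IgG libraries were above all others and spread more widely than those of either other group. The log2 fold change was −0.70 ± 0.07 over IgG (adjusted P = 3.35e-08), and over input it was −0.08 ± 0.07 (adjusted P = 0.27), although the p-UPF1 libraries lay just below the input ones. Upper-quartile factors gave −0.15 over input (adjusted P = 0.0371). IgG over input was 0.62 ± 0.07 (adjusted P = 8.47e-07). Set against Trp53, whose product it assists, the ratio was higher in p-UPF1 libraries by 1.15 over IgG (95% interval 0.94 to 1.36, adjusted P = 3.26e-06) and by 2.10 over input (1.89 to 2.31, adjusted P = 4.94e-08).

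Over the whole set, 4 of 10 members were higher in p-UPF1 than in IgG and 5 were lower, where 40.4% and 42.2% of all genes tested did so. Over input, 5 were higher and 4 lower, against 40.8% and 42.6% of all genes. On the log2 scale the median member lay at −0.27 in the first comparison and at 0.21 in the second, and the median of all genes tested was −0.03 in both. Libraries of the 2 groups did not overlap for 9 of 10 members over IgG (82.1% of all genes) and for 10 of 10 over input (88.2%). The counts of members that changed were therefore close to the background shares. By rank, the Gadd45 genes lay near the top of both comparisons (157, 217 and 859 over IgG, 70, 22 and 464 over input for Gadd45b, Gadd45g and Gadd45a), and Trp53 near the bottom (12058 and 12082 of 13129). Both comparisons share the p-UPF1 libraries. For IgG over input, 5 members were higher (18.2% of all genes) and 2 lower (34.7%), and 8 of 10 did not overlap (58.2%). The members' median there was 0.31 against −0.10 for all genes. Of the genes called in that contrast, 34.4% were higher, and this share was 38.6% with DESeq2 size factors, 52.6% where library size alone was used, 51.2% with an input library as the TMM reference, 50.2% with an IgG library in that role and 45.1% with upper-quartile factors.

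**Figure D2:**
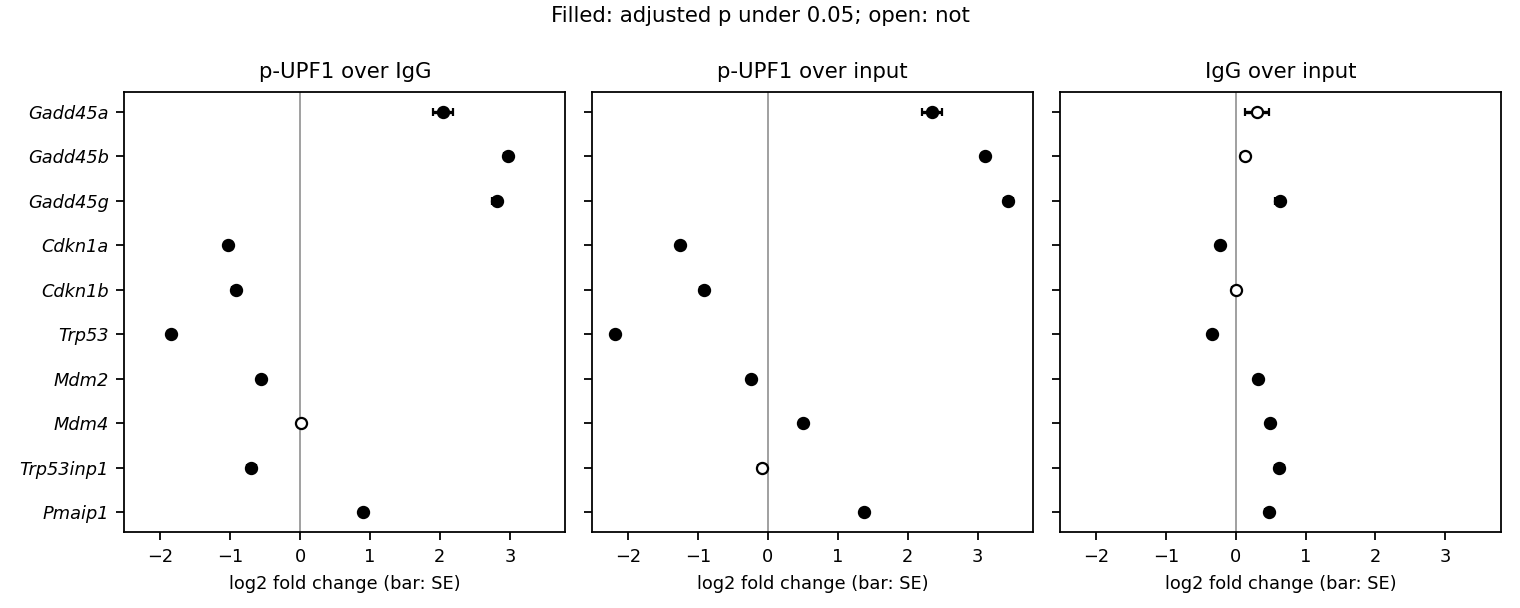
Log2 fold change (x axis) of each gene in the 3 contrasts, p-UPF1 against IgG, p-UPF1 against input and IgG against input, with bars of 1 SE that are often smaller than the point; filled points passed an adjusted P of 0.05 and open points did not. The Gadd45 genes lie at 2.04 to 3.44 in the first and second panels and at 0.13 to 0.63 in the third.

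**Figure D3:**
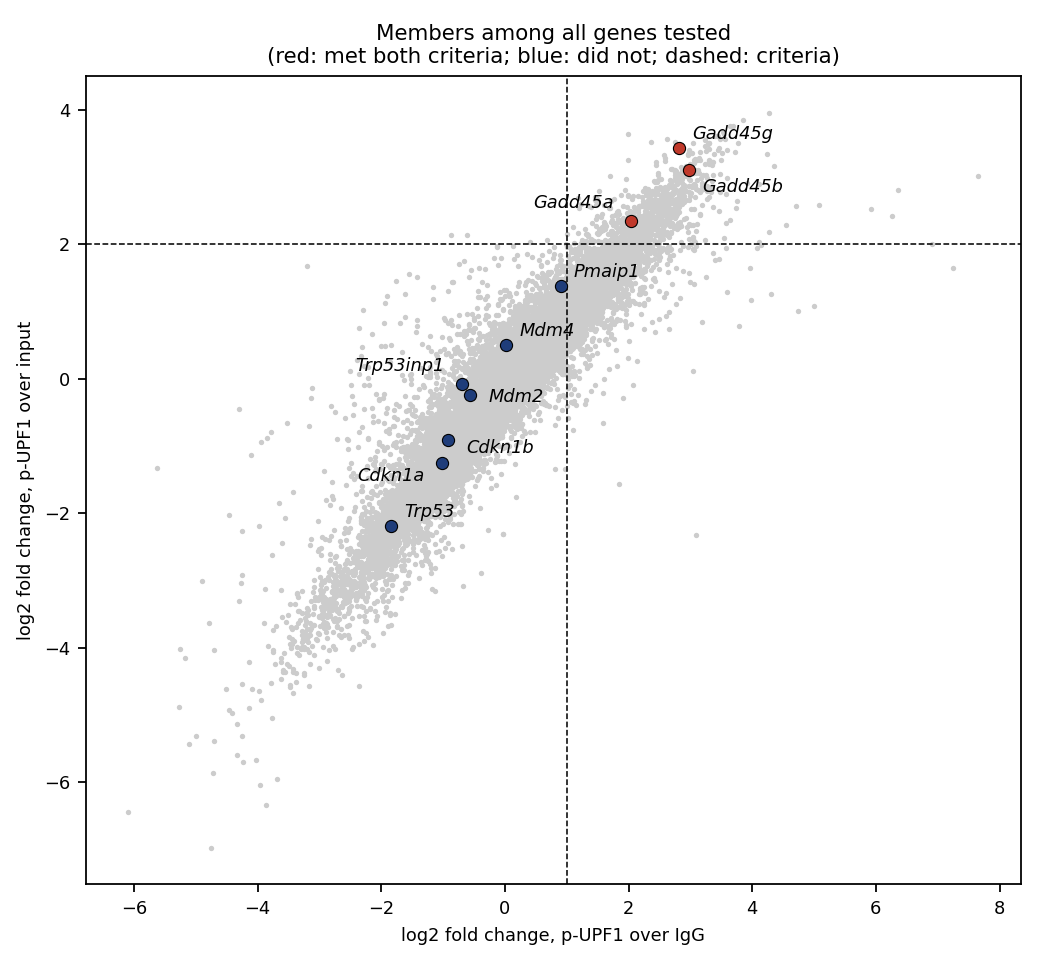
Log2 fold change of p-UPF1 over IgG (x axis) and over input (y axis) for the 13129 genes tested (grey) and the 10 members (red where both criteria were met, blue where not); dashed lines mark the criteria of 1 and 2. The 3 Gadd45 genes are in the upper right region beyond both lines, Pmaip1 lies just short of the vertical line, and Trp53 is at the lower left.

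Between genes, levels can be set side by side only per length, as CPM per kilobase of merged annotated exons. In input the order was led by Trp53 (91.9 ± 1.2, SD, n = 3) and Cdkn1a (66.5 ± 0.8). Gadd45g (55.6 ± 2.7) and Pmaip1 (53.3 ± 0.8) followed with overlapping libraries, then Mdm2 (41.6 ± 1.4) and Trp53inp1 (33.9 ± 0.5). Cdkn1b (31.2 ± 1.7) and Mdm4 (28.7 ± 1.4) overlapped too, and Gadd45b (17.3 ± 0.9) and Gadd45a (5.27 ± 0.24) came last. With IgG, Gadd45g (86.3 ± 9.0), Pmaip1 (74.2 ± 5.5) and Trp53 (72.7 ± 0.9) came first, each overlapping the next. In the p-UPF1 precipitate Gadd45g led at 605.5 ± 19.9, ahead of Gadd45b (150.0 ± 7.1) and Pmaip1 (139 ± 5). Gadd45a, at 26.9 ± 4.1, overlapped only Cdkn1a (27.9 ± 0.5), and Trp53 had moved from first place to the second lowest (20.2 ± 0.4), above Cdkn1b (16.6 ± 0.9). On these lengths, Gadd45b thus passed from the second lowest level in input to the second highest in the p-UPF1 precipitate. The order depends on the annotation. The merged RefSeq exons of Cdkn1b hold 2405 bases, while the 3′ UTR of its GENCODE M21 transcript alone has 3439.

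Known features of NMD substrates are a long 3′ UTR, an upstream open reading frame and an exon junction well after the stop codon. In GENCODE M21, the 3′ UTR of the representative transcript was 563 bases in Gadd45a, 558 in Gadd45b and 489 in Gadd45g, against a median of 1016 over 11866 tested genes with a transcript and 1684 over 755 of the p-UPF1-bound genes. Their coding sequences were short, at 495, 480 and 477 bases without the stop codon, where the median of all was 1383. None had an ATG ahead of the start codon, which 51.7% of all genes and 49.9% of bound genes had. No member had a junction at least 50 bases after its stop codon, a feature of 0.405% of all genes and 1.06% of bound genes. Among members that were not bound, the 3′ UTR ran from 441 bases in Trp53 to 5436 in Mdm4, and an ATG upstream of the start codon was found in Cdkn1a (3), Mdm4 (3), Mdm2 (2), Trp53inp1 (2) and Pmaip1 (2). These features are of 1 annotated transcript a gene, and which isoforms these cells used was not measured.

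Other genes of the p53 pathway met the criterion about as often as the background. The lists were drawn from general knowledge, but with earlier results of these data known. In them, 0 of 8 p53 targets in cell cycle arrest were bound, 1 of 11 in cell death, 3 of 10 in repair, redox control and metabolism, and 0 of 13 regulators of p53. Together this was 4 of 42 (9.5%) against 6.25% of all genes. Counts of list genes higher or lower than in IgG stand against 40.4% and 42.2% of all genes, and no list was tested against the rest. For the arrest targets, 2 were higher and 6 lower than in IgG, with a median log2 fold change of −0.47. Sfn (14-3-3 sigma) lay at 1.62 and Plk2 at 0.40, while Ppm1d, the phosphatase that switches p53 signalling off, and the antiproliferative Btg2 both lay at −1.40. For cell death, 4 were higher and 4 lower (6 lower with library size alone), at a median of −0.24. The nuclease gene Aen was bound at 2.22 over IgG and 2.09 over input. Bbc3, which encodes the BH3-only protein Puma, lay at 1.82 and 1.89 and so fell short over input, and Bax, the pore-forming effector, was lower at −0.97 and −1.17.

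Of the 10 repair, redox and metabolism targets, 6 were higher and 3 lower than in IgG, and their median was 1.02 against either background. Bound were Triap1, an apoptosis inhibitor of mitochondria, at 2.33 over IgG and 2.11 over input, Ddit4, an inhibitor of mTORC1, at 2.27 and 2.35, and Sesn1, a sestrin of the same pathway, at 2.24 and 2.60. Its paralog Sesn2 lay at 1.95 and 1.55. Among regulators of p53, 3 were higher and 7 lower than in IgG, at a median of −0.39, but 7 were higher and 5 lower than in input, at a median of 0.18 (6 and 6 with upper-quartile factors). The damage kinase Atr lay at −0.42 over IgG and at 0.18 over input, where it did not pass with upper-quartile factors (0.11, adjusted P = 0.0557). Atm, a damage kinase outside the rule for named genes and added after its values were seen, lay at −0.40 and 0.33. Over input, where 40.8% of all genes were higher and 42.6% lower, the counts were 2 higher and 5 lower for arrest (3 lower with an IgG library as the TMM reference), 4 and 4 for cell death, and 6 and 2 for repair, redox control and metabolism. Cop1, a ubiquitin ligase for p53, lay at 1.41 and 1.59, and Cdkn2a, whose Arf product blocks Mdm2, was lower at −2.24 and −2.81. Of the p53 family, Trp63 alone was tested, at 0.47 over IgG (adjusted P = 0.0505), where it passed under 2 other scalings (adjusted P = 0.0445 and 0.0378).

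Of 10 tested partners of Gadd45 proteins, 4 were higher and 6 lower than in IgG (4 and 5 over input) and 1 was bound, close to the shares of all genes (40.4%, 42.2% and 6.25%). Mapk14, the p38α kinase, was bound. It averaged 573 ± 12 CPM in p-UPF1 libraries against 132 ± 4 CPM for input and 120 ± 2 CPM for IgG (SD, n = 3), a log2 fold change of 2.26 against IgG and 2.12 against input. The kinases Map2k7, Map2k6 and Map2k3 lay at 1.29, 0.97 and 0.64 over IgG, whereas Map3k4, outside the rule for named genes and added after its values were seen, lay at −0.52 (adjusted P = 2.08e-06). The cell cycle partners were lower, with Pcna, the replication clamp, at −2.24 over IgG and −2.50 over input, Ccnb1 at −1.90 and −2.12, and Cdk1 at −1.56 and −1.95. Among 10 CDK inhibitors and CDK partners, 1 was bound, the INK4 gene Cdkn2b (2.60 over IgG and 2.34 over input). Its neighbours in function Cdkn2c and Cdkn2d lay at 1.04 and 0.60 over IgG, so the INK4 genes lay above 0 where Cdkn1a and Cdkn1b lay below, with Cdkn2a, counted as 1 gene for its Ink4a and Arf transcripts, the exception at −2.24. These signs held under the 5 other scalings tried. Cdkn1c, the relative of Cdkn1a and Cdkn1b in this list, lay at −0.70 over IgG (edgeR, adjusted P = 0.13) at a mean of only 0.62 CPM. The contrast between the 2 families was not tested.

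**Figure D4:**
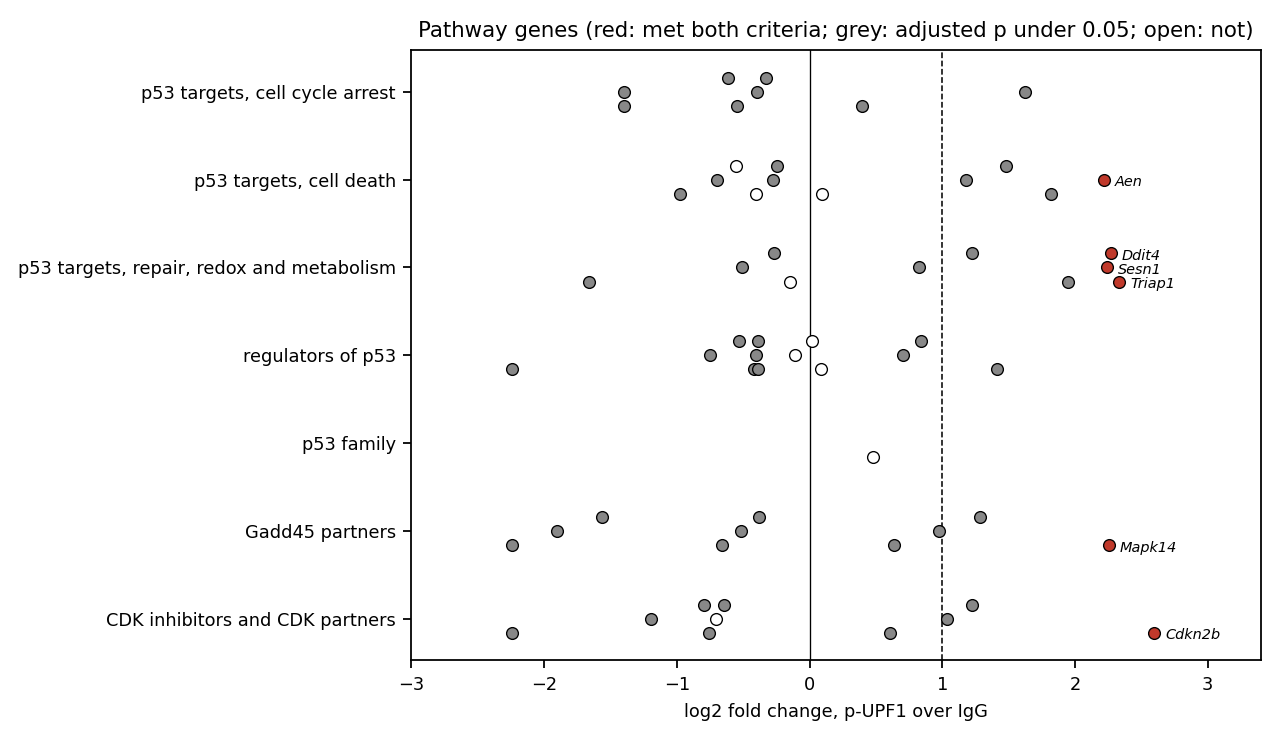
Log2 fold change of p-UPF1 over IgG (x axis) for the tested genes of 7 pathway lists, spread vertically for legibility; red points met both criteria and are named, grey points passed an adjusted P of 0.05, open points did not, and the dashed line is the IgG criterion of 1. Bound genes appear in 4 lists, at 2.22 to 2.60, and the other genes range down to −2.24.

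By Euclidean distance in the 2 log2 fold changes (over IgG and over input), over 8991 genes with at least 10 CPM on average, the genes nearest to Gadd45b were Traf2, Tsc22d3, Pfkfb4, Rassf1 and Dapp1, at distances of 0.018 to 0.047. Traf2 is an adaptor of TNF receptor and CD40 signalling, Tsc22d3 encodes the glucocorticoid-induced leucine zipper protein, Pfkfb4 is a glycolytic regulator, Rassf1 a tumour suppressor gene and Dapp1 an adaptor of B cell receptor signalling. Traf2 averaged 428 ± 9 CPM in p-UPF1 libraries, against 49.0 ± 0.9 CPM for input and 54.8 ± 7.9 CPM for IgG (SD, n = 3). Dapp1 averaged 384 ± 6 CPM there, against 45.8 ± 1.5 and 48.2 ± 2.0 CPM. Nearness here rests on 2 values over the same 9 libraries.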

How the data were processed

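The authors made libraries with a directional kit, and the paper's methods state no selection of poly(A) RNA for them. They deposited raw read counts per NCBI Gene number, with 1 column per library. The submitters' processing notes name cutadapt, HISAT2, featureCounts and mm10, with versions not given in the sources used here. Columns carry letters and labels carry numbers, so columns were assigned to groups only. Deviations of same-letter columns from their group means correlated at −0.005 to 0.054, and letters were not used as a block in the main fit. Counts were kept with filterByExpr (minimum count 10, total 15), scaled by TMM and fitted over all 9 libraries with edgeR 4.0.16 (quasi-likelihood test, two-sided, 6 residual degrees of freedom, Benjamini-Hochberg adjustment over 13129 genes, prior count 0.125) in R 4.3.3. Differences between genes were fitted with limma 3.58.1 on log2 ratios (prior count 2) of every gene to the second gene of the pair, adjusted over 13128 genes. DESeq2 1.42.0, limma-voom, other scalings and filters, and leaving out each library were alternatives. The tests were also run on simulated data in which far fewer genes changed than here, so that run does not bear on the scaling. Symbols and positions were from RefSeq GRCm38.p6 and transcript features from GENCODE M21. Named list genes were the 4 highest and 4 lowest of each list over IgG at 1 CPM or more, of which some are printed, and the 5 genes nearest Gadd45b. Counts held no molecular identifiers, so counting error understates the true error. The members and gene lists were chosen with earlier results of these data known. One item of the marker lists is not reported here.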

Additional observations from a re-analysis of the deposited data

How the results depend on the processing

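The 3 Gadd45 genes met both criteria, and no other member did, under all 22 alternatives, while the number of bound genes ranged from 734 with upper-quartile factors to 1088 without a filter on low counts. Of 660 values of single members under these alternatives, 647 kept their direction and their side of the threshold or were not called either way, 10 passed only in the alternative, 1 no longer passed and 2 reversed. The 2 were Mdm4 over IgG, at −0.12 with upper-quartile factors and −0.15 with library size alone. Scaling moved the median gene over IgG from −0.03 to −0.19 with library size alone. Leaving out each library gave −0.43 to −0.20 for Gadd45a minus Gadd45g in IgG over input (−0.35 with all libraries, adjusted P = 0.0446), not passing in 5 of 9 cases. For Cdkn1a minus Cdkn1b in IgG over input it gave −0.28 to −0.20 (−0.24 with all, adjusted P = 0.0344), not passing in 6 of 9, and for Gadd45b minus Gadd45g over IgG 0.089 to 0.23. The cause was not tested. Bound counts of the pathway lists were the same under the 5 other scalings, except that Bbc3 was added (2.02 over input) with an IgG library as the TMM reference. Gadd45a had the fewest reads of the members in IgG libraries, 113 to 184, and a wider spread there (8.0 ± 2.0 CPM) than in input at 122 to 167 reads (6.45 ± 0.29 CPM). A replicate block by column letter, added after seeing the data, gave 822 bound genes against 820, with 815 shared. With it Mdm2 minus Mdm4 in IgG over input passed (−0.17, adjusted P = 0.0314), Cdkn1a minus Cdkn1b in IgG over input did not (−0.24, adjusted P = 0.0616), and no other call on members or pairs changed. Same-letter columns correlated under 0.1 in all 9 cases. For letters A and B, however, same-letter values were 0.032 to 0.054, and values between A and B were −0.056 to −0.014. Whether columns of the same letter came from the same lysate is not given in the sources used here.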

Other observations

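Some p53 pathway genes differed between the control precipitate and the input. Of the 8 arrest targets, 3 were higher and 3 lower in IgG, where 18.2% and 34.7% of all genes tested were. Btg2 averaged 212 ± 9 CPM with IgG, 89.9 ± 2.2 CPM with input and 80.5 ± 1.0 CPM with p-UPF1 (SD, n = 3), with a log2 fold change of IgG over input of 1.24 ± 0.04 (SE, edgeR, adjusted P = 8.08e-12), so its low value over IgG goes with a high level in IgG. Sesn2 was lower in IgG at −0.40 ± 0.05 (adjusted P = 3.18e-06), and Cdkn2a at −0.57 ± 0.05 (adjusted P = 2.66e-07). Of the 13 regulators of p53, 6 were higher and 5 lower, and neither list was tested against other genes.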
